A study of Homo sapiens with 9 samples.

Results

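Interferon-stimulated genes were followed through 9 intracranial tumours as a group of 37 genes named by symbol. All 37 had a row among the 18364 genes of the deposited table, and 36 of them had a mean of at least 1 CPM (reads scaled for library size) over the 9 tumours and were tested. The remaining member, IRF7, had 28 reads in all. The tumours grew in nude mice, which lack mature T cells and keep other immune cells, from LN229 cells, a long-established line of human glioblastoma. TAZ-4SA, an activated TAZ (a co-activator of transcription in the Hippo pathway), was present in 6 tumours. The empty vector (EV) was present in 3, and every tumour was taken at the terminal stage. The labels give neither the promoter of the construct, nor the number of clones behind each line, nor the ages of the mice. The comparison of the groups asks how active TAZ alters gene expression as glioblastoma progresses.

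Cells sense foreign or misplaced nucleic acid with receptors such as RIG-I and MDA5 and then release interferon. Type I interferon binds IFNAR1 and IFNAR2, the kinases JAK1 and TYK2 are activated, and STAT2 and IRF9 act in the complex ISGF3. ISGF3 binds the interferon-stimulated response element (ISRE) in front of antiviral genes, while interferon gamma acts through the gamma-activated sequence (GAS), a well-known element of the IRF1 promoter. In glioblastoma, the same genes can be expressed by the tumour cells themselves and by infiltrating myeloid cells.

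The DNA in front of 5 members is shown as examples: ISG15 and IFIT1 stood apart in EV tumour 2, and BST2, IRF9 and IRF1 differed between the groups. Several other members, among them RSAD2 and IFI44L, stood further apart than IFIT1 in EV tumour 2. No promoter sequence was given for IRF3 and IFITM2, which also differed between the groups. Each stretch holds the 170 bases before the RefSeq transcript start on GRCh38.p14, printed on the strand of the gene. Capitals mark matches to the letters GAAANNGAAA (core of the ISRE), AGTTTCNNTTTC (an extended ISRE, which always contains a core match on the other strand) or TTCNNNGAA (GAS), searched on both strands.
ISG15, chr1:1013327-1013496, plus strand: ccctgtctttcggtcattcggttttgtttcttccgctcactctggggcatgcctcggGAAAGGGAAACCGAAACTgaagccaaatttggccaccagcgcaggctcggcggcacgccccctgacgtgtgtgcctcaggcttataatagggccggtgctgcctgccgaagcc
IFIT1, chr10:89392453-89392622, plus strand: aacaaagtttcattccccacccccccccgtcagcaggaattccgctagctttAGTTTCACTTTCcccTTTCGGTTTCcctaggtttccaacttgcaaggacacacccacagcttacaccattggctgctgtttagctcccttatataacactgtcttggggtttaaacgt
BST2, chr19:17405631-17405800, minus strand: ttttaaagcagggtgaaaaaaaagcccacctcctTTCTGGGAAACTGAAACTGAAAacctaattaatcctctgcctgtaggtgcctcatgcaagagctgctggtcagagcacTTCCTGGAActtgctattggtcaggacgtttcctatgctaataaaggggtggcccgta
IRF9, chr14:24161095-24161264, plus strand: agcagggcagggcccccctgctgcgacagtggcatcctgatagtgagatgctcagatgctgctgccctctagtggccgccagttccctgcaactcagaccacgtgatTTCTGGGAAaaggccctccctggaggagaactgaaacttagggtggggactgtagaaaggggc
IRF1, chr5:132490774-132490943, minus strand: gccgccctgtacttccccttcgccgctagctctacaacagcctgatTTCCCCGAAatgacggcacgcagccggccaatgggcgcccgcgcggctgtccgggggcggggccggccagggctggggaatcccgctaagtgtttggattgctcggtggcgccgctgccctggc
ISG15 had overlapping core matches between 113 and 98 bases before the start, and its extended match lay 107 to 96 bases before it. IFIT1 had core matches 116 to 107 and 103 to 94 bases before the start. BST2 had both kinds of element, with ISRE letters between 130 and 115 bases and GAS letters 136 to 128 and 58 to 50 bases before the start. IRF9 and IRF1 held GAS letters, at 63 to 55 and 124 to 116 bases, and no ISRE letters in this window. Windows of 300 bases (250 before the start and 50 after it) were given for 28 members, 39 windows in all. The core ISRE was in 22 of the 39 windows (18 members), where 3.57% of all 35116 windows had it. The extended ISRE was in 16 of the 39 (13 members), against 0.273% of all windows, and the GAS letters in 9 of the 39 (8 members), against 7.66%. A match describes letters, not a bound site.

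The libraries of the groups differed in how many genes they detected. Recovered totals lay between 3144861 and 31468135 reads in TAZ-4SA and between 17314672 and 21576264 reads in EV, and genes without a read numbered 2990 to 7365 per TAZ-4SA library and 505 to 622 per EV library. A floor of 3 reads corresponded to 0.108 to 0.917 CPM in TAZ-4SA and 0.141 to 0.193 CPM in EV. Of 10 glioma and glial markers, 9 were tested, and they split between the groups. EGFR and CD44 were called higher in TAZ-4SA (means of 375 and 309 CPM, against 10.4 and 97.6 CPM in EV), and NES and S100B lower (158 and 2.95 CPM, against 1324 and 208 CPM). VIM was at 1480 CPM or more in all 9 tumours, and the astrocyte marker GFAP lay between 0 and 104 CPM. In these bulk samples, fewer cells of a type and less RNA per cell cannot be told apart.

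Few of the interferon-stimulated genes were called between the groups. Of 36 members tested, 1 was higher in TAZ-4SA (IRF1), 4 were lower (IRF3, IRF9, IFITM2 and BST2) and 31 were not called with limma at an adjusted p of 0.05. That is 13.9% of the members called, where 22.4% of all 15578 genes tested were called (9.02% higher and 13.3% lower). The median log2 fold change of the members was -1.13 and that of all genes tested was -0.85, with 32 members below 0 and 4 above, where 67.4% of all genes tested were below 0. The groups did not overlap for 8 members, against 32.0% of all genes: IRF1 lay higher in every TAZ-4SA tumour, and IFITM1, IFITM2, IFITM3, BST2, IRF3, IRF9 and ISG20 lay higher in every EV tumour. The calls leaned on the 3 EV tumours: without EV tumour 1 or EV tumour 2 no member was called by limma (8 of 36 passed an unadjusted p of 0.05 with all tumours), and without EV tumour 3 only IRF1 was. TAZ-4SA tumours 2, 3 and 4 were the libraries with the most genes at 0 reads. Without them, 4 members were higher (IRF1, IFIH1, IFIT3 and IFIT5) and 5 lower (IFITM1, IFITM2, IFITM3, IRF3 and BST2). Of all 15578 genes, 1893 were then higher and 2256 lower. The median was -0.04 over members and -0.49 over all genes.

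**Figure D1:**
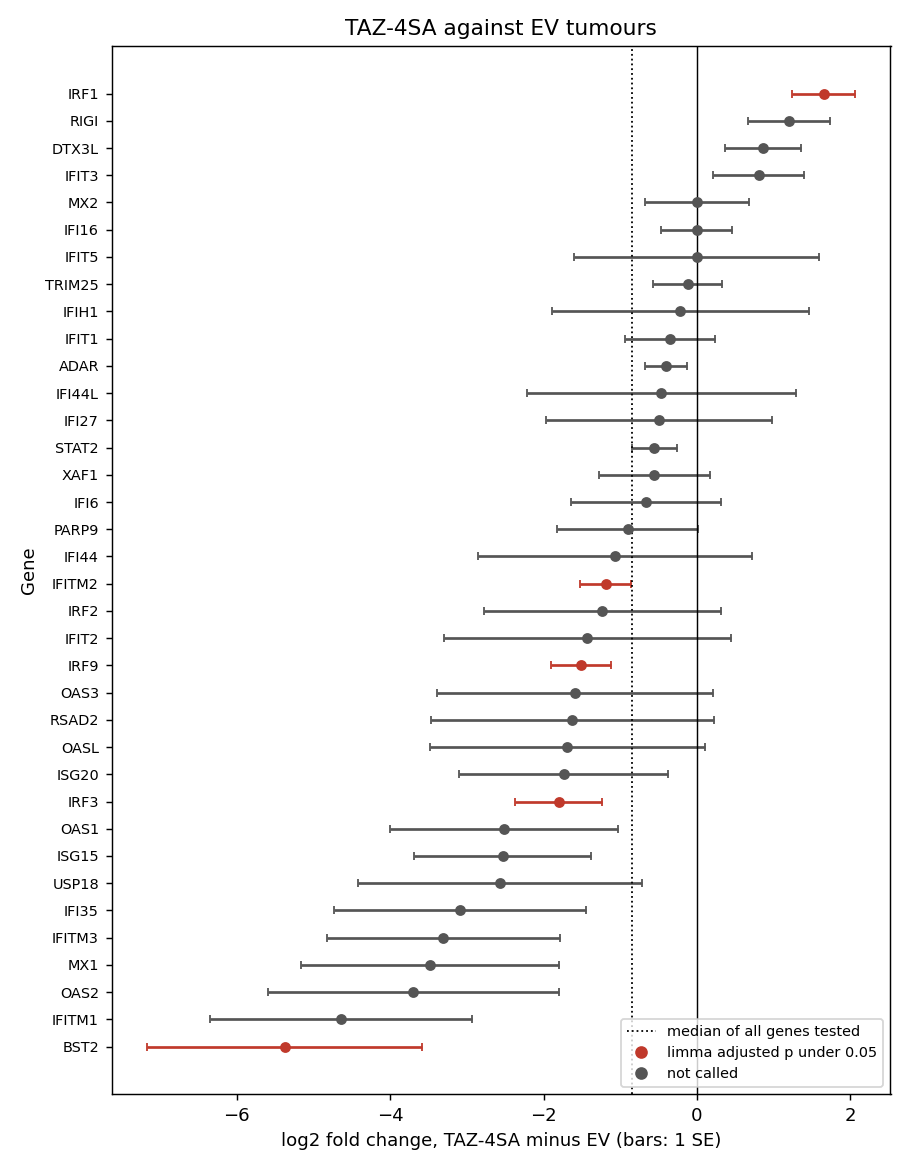
Log2 fold change of each of the 36 tested members, TAZ-4SA minus EV, on the log2(CPM + prior) scale, with bars of 1 SE; red marks a limma adjusted p under 0.05 and the dotted line is the median of all genes tested, -0.85. IRF1 is the called gene on the right, and BST2, IRF3, IRF9 and IFITM2 are the called genes on the left.

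Among the regulators, IRF1, a transcription factor induced through GAS elements, was higher in TAZ-4SA. IRF1 stood at 19.3, 22.9 and 30.3 CPM in EV tumours 1 to 3 and between 41.6 and 127 CPM in TAZ-4SA, with a median of 71.1 CPM. The lowest TAZ-4SA tumour thus lay above the highest EV tumour, and the log2 fold change was 1.65 ± 0.41 (SE, limma adjusted p = 0.01354). Its limma adjusted p was 0.0802 without EV tumour 1 and 0.06416 without EV tumour 2.

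IRF9, the DNA-binding subunit of ISGF3, was lower in TAZ-4SA. Its EV values were 96.0, 162 and 102 CPM, and its TAZ-4SA values ran from 29.9 to 85.9 CPM with a median of 36.4 CPM. TAZ-4SA tumour 5 alone came near the EV range, and the other TAZ-4SA tumours lay at 40.2 CPM or less. The log2 fold change of IRF9 was -1.52 ± 0.39 (SE, limma adjusted p = 0.01607), and the limma adjusted p was 0.05256, 0.1228 and 0.05008 without EV tumour 1, 2 or 3 and 0.06817 without TAZ-4SA tumours 2, 3 and 4.

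IRF3, which is activated by nucleic acid sensing and drives interferon beta, was also lower in TAZ-4SA. It stood at 61.5, 75.1 and 36.8 CPM in EV and between 8.86 and 35.5 CPM (median 13.7) in TAZ-4SA, so that EV tumour 3 and TAZ-4SA tumour 2 nearly met. The log2 fold change of IRF3 was -1.80 ± 0.56 (SE, limma adjusted p = 0.03717). Leaving out EV tumour 1, 2 or 3 ended the IRF3 call (limma adjusted p = 0.1774, 0.2177 and 0.07325). So did leaving out tumour 1, 4 or 6 of TAZ-4SA (limma adjusted p = 0.05657, 0.05128 and 0.05404). IRF3 overlaps BCL2L12 on chromosome 19, and reads of overlapping genes cannot be told apart without strand.

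STAT2, another subunit of ISGF3, had 144, 203 and 115 CPM in EV and 78.3 to 127 CPM (median 102) in TAZ-4SA. The groups overlapped, and STAT2 was not called (log2 fold change -0.56 ± 0.30, SE, limma adjusted p = 0.1904). IRF2, a factor that can act as a repressor of interferon genes, had 25.8 and 28.3 CPM in EV tumours 1 and 2 but 2.26 CPM in EV tumour 3, and 0.101 to 21.7 CPM (median 8.41) in TAZ-4SA. EV tumour 3 thus stood far below its own group for IRF2, within the range of the TAZ-4SA tumours. IRF7, the factor that amplifies interferon alpha production, had 0 reads in 5 TAZ-4SA tumours, 0.280 CPM in TAZ-4SA tumour 5, and 0.281, 1.05 and 0.193 CPM in EV, so that its highest value lay in EV tumour 2.

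The other genes of the pathway came from a list of 44 interferon ligand, receptor, kinase, sensor and inhibitor genes, of which 37 were in the table and 34 were tested. Of these, 6 were higher in TAZ-4SA, 3 lower and 25 not called, where 22.4% of all genes were called (9.02% higher and 13.3% lower). Their median log2 fold change was -0.48, against -0.85 over all genes. JAK1, a kinase at all interferon receptors, stood at 49.4, 50.5 and 58.9 CPM in EV and at 123 to 204 CPM in TAZ-4SA (log2 fold change 1.49 ± 0.28, SE, limma adjusted p = 0.002764). JAK2, a kinase of the interferon gamma receptor, stood at 3.05, 4.48 and 3.93 CPM in EV and between 11.8 and 115 CPM in TAZ-4SA (log2 fold change 2.91 ± 0.80, SE, limma adjusted p = 0.02231). TYK2, the kinase bound to IFNAR1, moved the other way, with 214, 227 and 239 CPM in EV and 22.01 to 141.7 CPM in TAZ-4SA (log2 fold change -1.79 ± 0.53, SE, limma adjusted p = 0.02905). In these 3 kinases no TAZ-4SA tumour lay within the EV range. The JAK1 call held without each tumour in turn. The JAK2 call was lost without EV tumour 1, 2 or 3 (limma adjusted p = 0.08269, 0.06528 and 0.06153) and with limma-voom on the recovered reads (0.1143). The TYK2 call was lost without any 1 EV tumour or TAZ-4SA tumour 1 or 4 (limma adjusted p between 0.05614 and 0.09335).

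The phosphatase gene PTPN11, which encodes SHP2, was higher (log2 fold change 1.90, limma adjusted p = 0.001088), as was TRIM56, a ubiquitin ligase linked to nucleic acid sensing (1.45, limma adjusted p = 0.02769). RNASEH2C, a subunit of ribonuclease H2, was lower (-2.50, limma adjusted p = 0.01684), and so was RNF125, a ubiquitin ligase that acts on RIG-I (-4.71, limma adjusted p = 0.03698), which had 0 reads in 3 TAZ-4SA tumours. PTPN11 stayed called without each tumour in turn. TRIM56 was not called without TAZ-4SA tumour 4 or EV tumour 1 or 3 (limma adjusted p = 0.05319, 0.06965 and 0.1526), nor RNASEH2C without EV tumour 1 or 2 (0.06672 and 0.07226), nor RNF125 without TAZ-4SA tumour 2, 3 or 4 or any 1 EV tumour (0.05361 to 0.1319). The receptor genes IFNAR1 and IFNAR2 were not called (log2 fold changes 0.94 and -2.01). Of the ligands, IFNE had 1.22, 1.92 and 0.193 CPM in EV and no read in TAZ-4SA, and IFNK had 0 reads in all 9. IFNB1, IFNA1, IFNG and the interferon lambda genes were not analysed here.

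**Figure D2:**
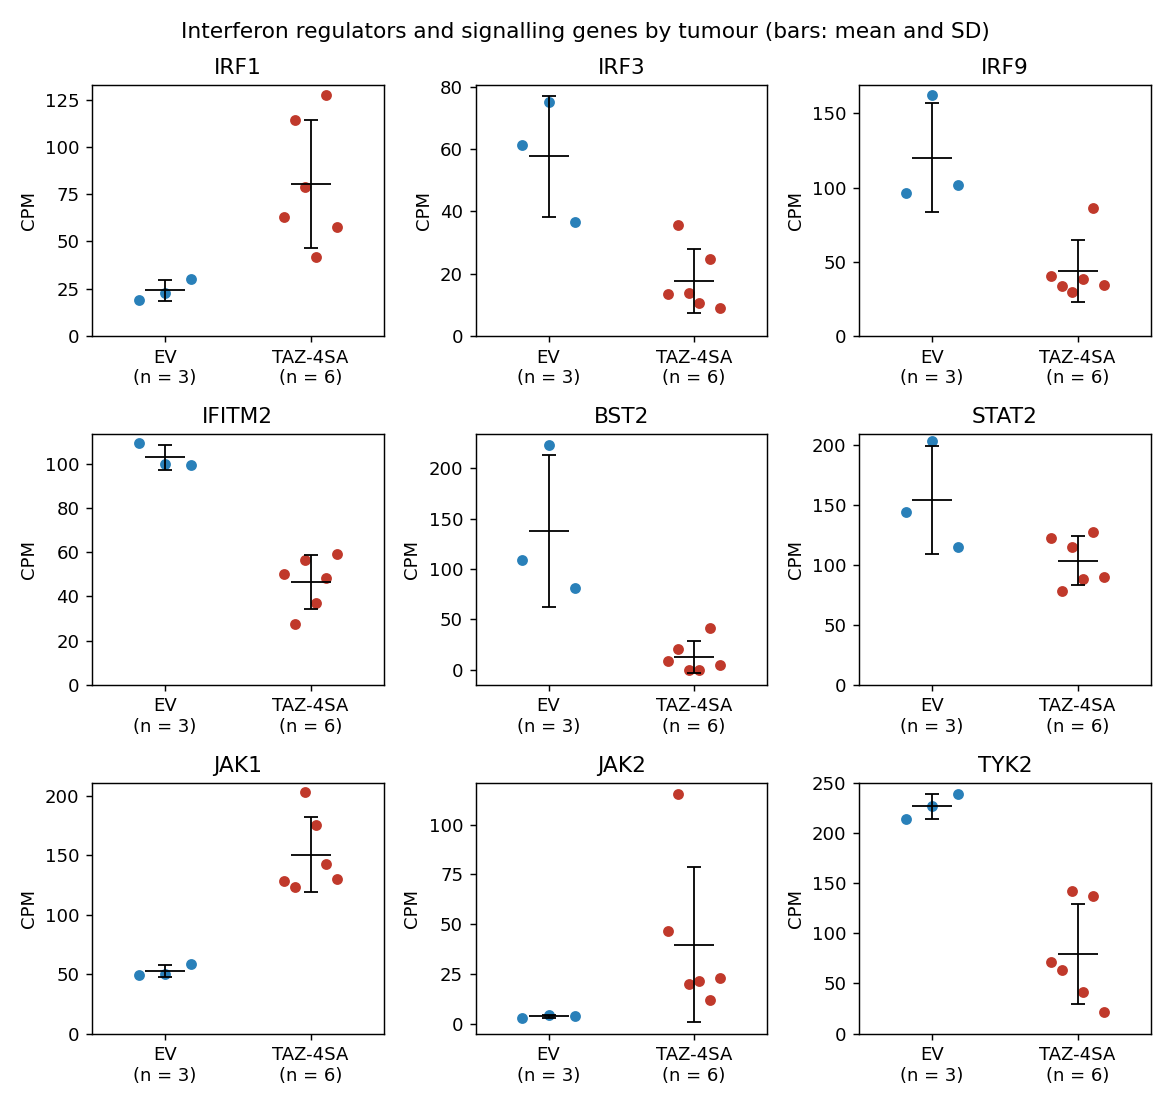
CPM in each tumour for regulators, signalling kinases and the called membrane genes, with the mean and SD of each group (EV n = 3, TAZ-4SA n = 6). IRF1, JAK1 and JAK2 have every TAZ-4SA point above the EV points, and IRF3, IRF9, IFITM2, BST2 and TYK2 have every TAZ-4SA point below them.

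The 4 sensor genes were not called. RIGI, the receptor for RNA with a triphosphate end, stood at 12.2, 26.9 and 8.32 CPM in EV and between 20.9 and 50.4 CPM (median 32.3) in TAZ-4SA. The ranges overlapped through EV tumour 2, and the log2 fold change of 1.197 ± 0.538 (SE) had a limma adjusted p of 0.1278. IFIH1, which encodes the long-RNA sensor MDA5, ranged widely among TAZ-4SA tumours, from 0 reads in tumour 2 to 80.5 CPM in tumour 1 (median 20.7), and was at 10.8, 22.6 and 6.38 CPM in EV. Its log2 fold change of -0.22 turned to 1.01 without TAZ-4SA tumour 2 and to 0.26 without EV tumour 2. IFI16, a DNA sensor, stood at 215, 191 and 185 CPM in EV and 76.6 to 336 CPM (median 257) in TAZ-4SA, with the EV values inside the TAZ-4SA range. TRIM25, the ubiquitin ligase that helps to activate RIG-I, had 121, 167 and 124 CPM in EV and 40.3 to 186 CPM (median 152) in TAZ-4SA. MAVS, the adaptor of RIG-I and MDA5, had 191 ± 40.7 CPM (SD, n = 3) in EV and 192 ± 64.9 CPM (SD, n = 6) in TAZ-4SA.

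Of the 4 membrane proteins that restrict virus entry or release, BST2 and IFITM2 were lower in TAZ-4SA, and IFITM1 and IFITM3 were not called. BST2, or tetherin, which holds budding virions at the cell surface, stood at 109, 223 and 81.2 CPM in EV. In TAZ-4SA it had 0 reads in tumours 3 and 4 and up to 41.4 CPM in tumour 5, with a median of 6.73 CPM. No TAZ-4SA tumour reached the EV range, and the log2 fold change of BST2 was -5.38 ± 1.79 (SE, limma adjusted p = 0.04871). This call was close to the threshold. It was lost without any 1 EV tumour or TAZ-4SA tumour 1, 3, 4 or 6 (limma adjusted p between 0.05517 and 0.1821). With all tumours kept, the call was lost without a filter (limma adjusted p = 0.06614) and with a minimum mean of 10 CPM (0.0592). The BST2 call was also lost without robust variance moderation and with the replicate number as a block (limma adjusted p = 0.06275 and 0.102). It held with a pseudocount of 2 CPM, median-of-ratios scaling, quantile normalization, array weights and limma-voom.

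IFITM2, which blocks virus fusion in endosomes, stood at 109, 99.8 and 99.6 CPM in EV and 27.6 to 59.3 CPM (median 49.2) in TAZ-4SA. Both groups were tight and did not meet, with a log2 fold change of -1.19 ± 0.34 (SE, limma adjusted p = 0.02436). Its limma adjusted p was 0.13, 0.1093 and 0.08911 without EV tumour 1, 2 or 3. IFITM1 had 92.2, 278 and 87.9 CPM in EV and 0 to 53.5 CPM (median 16.3) in TAZ-4SA, a log2 fold change of -4.64 ± 1.71 (SE) with a limma adjusted p of 0.0698. IFITM3 had 246, 468 and 234 CPM in EV and 0.303 to 122 CPM (median 89.0) in TAZ-4SA, a log2 fold change of -3.31 ± 1.52 (SE) with a limma adjusted p of 0.1395. The EV tumours lay above the TAZ-4SA tumours in both genes, and neither was called. IFITM1, IFITM2 and IFITM3 lie within chromosome 11 from 307816 to 320860 (GRCh38) and are close copies of each other, so reads may be split between them.

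The ISG15 system tags proteins with a ubiquitin-like modifier. ISG15 itself stood at 38.5, 196 and 46.2 CPM in EV and at 0.706 to 89.3 CPM (median 15.7) in TAZ-4SA. EV tumour 2 and TAZ-4SA tumour 5 stood above all others in ISG15, which was not called (log2 fold change -2.53 ± 1.15, SE, limma adjusted p = 0.1327). USP18, which removes ISG15 and damps the receptor, had 14.8, 31.2 and 14.5 CPM in EV, 0 reads in TAZ-4SA tumours 2 and 3 and up to 20.8 CPM in tumour 6. PARP9 and DTX3L, which form a complex that modifies histones, start close together on opposite strands of chromosome 3 and overlap, so that some reads could belong to either. PARP9 had 29.8, 55.6 and 31.0 CPM in EV and 1.82 to 62.7 CPM (median 28.9) in TAZ-4SA, and DTX3L had 21.3, 49.1 and 14.1 CPM in EV and 26.2 to 77.8 CPM (median 46.4) in TAZ-4SA. Neither was called, and the groups overlapped in both.

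The IFIT genes, whose products include proteins that bind foreign RNA, lie side by side within chromosome 10 from 89302046 to 89420997, inside the span of LIPA. IFIT3 was 20.5, 50 and 22.6 CPM in EV and 12.7 to 94.8 CPM (median 61.4) in TAZ-4SA (log2 fold change 0.81 ± 0.59, SE, limma adjusted p = 0.3388). IFIT1 was 22.9, 75.0 and 22.9 CPM in EV and 14.1 to 57.5 CPM (median 23.1) in TAZ-4SA. IFIT2 and IFIT5 had 8.43 to 13.5 CPM in EV, and in TAZ-4SA they ranged from 0 reads in tumour 2 or 3 to 37.0 and 42.8 CPM in tumour 6. No IFIT gene was called. TAZ-4SA tumour 3 was the lowest of its group for IFIT3 and IFIT5, and IFIT2 stood at 1 read there.

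The RNA-directed enzymes were not called either. OAS1, OAS2 and OAS3, which make an RNA-triggered second messenger, lie next to each other on chromosome 12. OAS1 had 31.2, 86.3 and 13.5 CPM in EV and 0 to 27.8 CPM (median 9.96) in TAZ-4SA, and OAS2 had 26.6, 83.1 and 9.99 CPM in EV and 0 to 20.4 CPM (median 7.41) in TAZ-4SA. OAS3 ranged among TAZ-4SA tumours from 0 reads in tumour 2 to 202 CPM in tumour 5, around EV values of 55.4, 90.5 and 41.1 CPM. ADAR, the adenosine deaminase that edits double-stranded RNA, was steady, with 496, 655 and 523 CPM in EV and 269 to 544 CPM (median 456) in TAZ-4SA. ISG20, an exonuclease gene, had 11.2 to 14.0 CPM in EV and 0.101 to 8.79 CPM in TAZ-4SA, without overlap and without a call (limma adjusted p = 0.3701). OASL had 3.75, 13.1 and 4.58 CPM in EV and 0 to 13.5 CPM in TAZ-4SA.

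MX1, a GTPase that traps viral nucleocapsids, had 8.57, 11.98 and 7.16 CPM in EV, 15.7 CPM in TAZ-4SA tumour 2, and at most 3.97 CPM in the remaining TAZ-4SA tumours. A single tumour therefore held 74.6% of the MX1 signal of its group. MX2 had 16.0, 40.1 and 12.7 CPM in EV and 7.50 to 40.5 CPM (median 18.2) in TAZ-4SA, with a log2 fold change of -0.0008. RSAD2, which encodes viperin and overlaps CMPK2, had 5.48, 21.4 and 4.51 CPM in EV and 0 to 18.6 CPM in TAZ-4SA. IFI27, a mitochondrial protein gene, was at 0.267 CPM or less in 5 TAZ-4SA tumours and at 15.0 CPM in TAZ-4SA tumour 6, which held 97.9% of its group's signal. Its EV values were 0.468, 0.698 and 0.193 CPM, so that TAZ-4SA tumour 6 exceeded every other tumour. IFI6, IFI35, IFI44, IFI44L and XAF1 were not called, with log2 fold changes between -3.09 and -0.46.

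Within EV, tumour 2 stood apart across the group of genes. EV tumour 2 was the highest of the 3 EV tumours for 33 of 36 members, where it was the highest for 32.1% of all genes tested. It was at least 1.5 times both other EV tumours for 22 members (61.1%), against 3.15% of all genes (490 of 15578). The median ratio of EV tumour 2 to the mean of EV tumours 1 and 3 was 2.06 over the members and 0.987 over all genes. These are descriptions of a single tumour, with no test, and they were singled out with the values known.

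The largest of these ratios were in antiviral effectors. ISG15 was 4.63 times the mean of the other EV tumours, OAS2 4.54 times, RSAD2 4.28 times and IFI44L 4.15 times. IFI6 was 548 CPM in EV tumour 2, against 131 and 145 CPM in tumours 1 and 3. At the other end, IRF1 (0.922 times), IFITM2 (0.956 times) and IFI16 (0.956 times) were not raised there. By role, the median ratio was 2.79 for MX1, MX2 and RSAD2, 2.51 for the RNA-directed enzymes, 2.45 for the ISG15 and PARP9 genes and 2.39 for the IFI genes and XAF1. It was 2.15 for the membrane proteins, 1.99 for the sensors, 1.88 for the IFIT genes and 1.57 for the regulators. Each role holds 3 to 6 tested genes, and differences between roles were not tested. The 18 tested members with the core ISRE letters had a median ratio of 2.33, and the 10 with windows lacking them had 1.60. The same medians were 2.32 (13 members) and 1.87 (15 members) for the extended ISRE and 2.04 (8 members) and 2.13 (20 members) for the GAS letters. These differences were not tested.

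**Figure D3:**
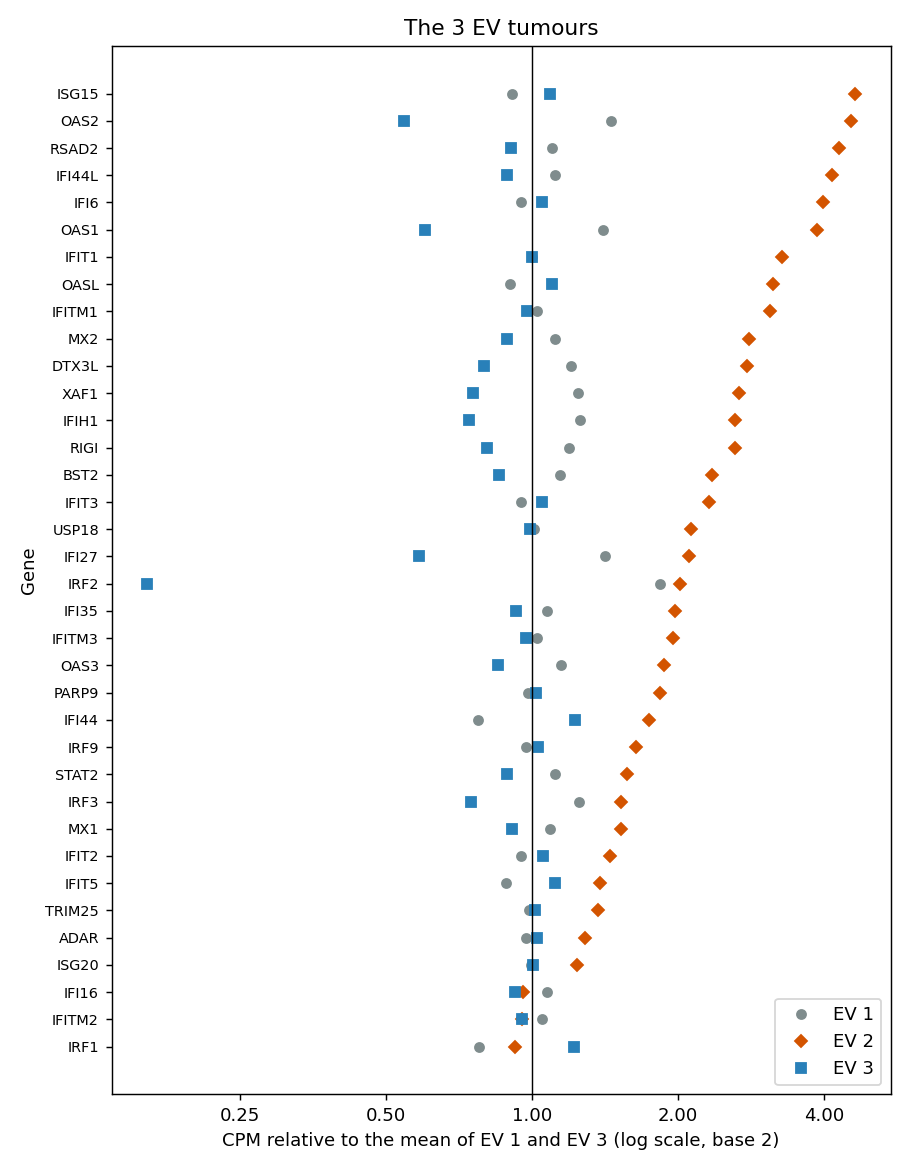
CPM of each member in EV tumours 1, 2 and 3 relative to the mean of EV tumours 1 and 3, on a log axis of base 2. EV tumour 2 lies to the right of both others for 33 of the 36 members, up to 4.63 times for ISG15, and IRF2 has a low value in EV tumour 3.

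The same tumour was high for a separate list of 60 interferon-stimulated genes outside the 37, of which 55 were tested. EV tumour 2 was the highest EV tumour for 44 of these and at least 1.5 times both others for 17 (30.9%), with a median ratio of 1.37. Among the 34 tested ligand, receptor and signalling genes it was the highest for 14 and at least 1.5 times both others for 3, with a median ratio of 1.10. The lists share some genes, among them UBE2L6, UBA7 and SAMHD1.

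Depth and markers of other cell types were compared for EV tumour 2. Its 17425672 reads and 622 genes at 0 reads lay near those of the other EV tumours. The summed level of 8 microglia and macrophage markers, out of 13 on the list, was 41.3 CPM in EV tumour 2 and 29.7 and 32.6 CPM in EV tumours 1 and 3, the highest of the 3. CD68 stood at 22.7 CPM in EV tumour 2 and at 13.8 and 12.6 CPM in EV tumours 1 and 3, over 1.5 times both, and TMEM119 at 13.8 CPM in EV tumour 2 and 10.4 and 13.9 CPM in the others. CSF1R was highest in EV tumour 2 (1.28 CPM, against 0.937 and 0.838 CPM), and ITGAM was lowest there (1.57 CPM, against 2.76 and 2.45 CPM). PTPRC, the defining leukocyte marker, had 0.0581 CPM, or 1 read, in EV tumour 2. Of 8 lymphoid markers, 2 were in the table, with a sum of 1.63 CPM there. Endothelial markers summed to 47.3 CPM in EV tumour 2, against 41.4 and 43.9 CPM, and neuronal markers to 46.2 CPM, against 61.3 and 159 CPM. The hosts were mice and the only genome named was human, so these marker levels cannot be assigned to host or tumour cells. They do not measure the content of host cells. The part of these cells in the EV tumour 2 values was not tested.

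Among the TAZ-4SA tumours, the members were spread more widely than in EV, and so were all genes by the medians given below. Tumours 1, 5 and 6 held the highest value of the group for 28 of 36 members, TAZ-4SA tumour 2 for 6, and TAZ-4SA tumours 3 and 4 for 1 each. Over all genes tested, tumours 1, 5 and 6 were the highest for 13.3%, 21.5% and 11%, and tumours 2, 3 and 4 for 16.7%, 18.9% and 16.8%. TAZ-4SA tumour 3 had 0 reads for 10 of the 36, among them IFI44, IFI44L, IFIT5, IFITM1, USP18 and BST2, although STAT2 (115 CPM), ADAR (457 CPM) and OAS3 (95.3 CPM) were well detected there. Relative to each gene's mean over the 9 tumours, the median member stood at 0.67 to 0.71 on the log2 scale in tumours 1, 5 and 6. In tumours 2, 3 and 4 it stood at -0.67, -1.07 and -0.48. The median over all genes stood at 0.01 to 0.42 in tumours 1, 5 and 6, at -0.75, -0.19 and -0.20 in tumours 2, 3 and 4, and at 0.58 in each EV tumour. The member median was thus below that of all genes in tumours 3 and 4 but not in tumour 2. Missing reads went with the split of the member medians: 6573 to 7365 genes were at 0 in tumours 2, 3 and 4 and 2990 to 5232 in tumours 1, 5 and 6. Neuronal markers summed to 824 and 1270 CPM in tumours 5 and 6 and 84.5 to 204 CPM in tumours 1 to 4, all 7 markers being in the table. Microglia and macrophage markers summed to 65.7 to 178 CPM over TAZ-4SA tumours. CD68 was the largest part, with 32.9 of 65.7 CPM in tumour 4. Of the 5 markers tested, CD68 was called higher in TAZ-4SA (log2 fold change 2.33, limma adjusted p = 0.004116) and 4 were not called. Among these 4, ITGAM and TMEM119 had log2 fold changes below 0 (-1.77 and -0.69). PTPRC was at 0 reads in all TAZ-4SA tumours but tumour 2 (12.4 CPM). As in EV tumour 2, these marker levels cannot be assigned to mouse or human cells, and the part of such cells was not tested.

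**Figure D4:**
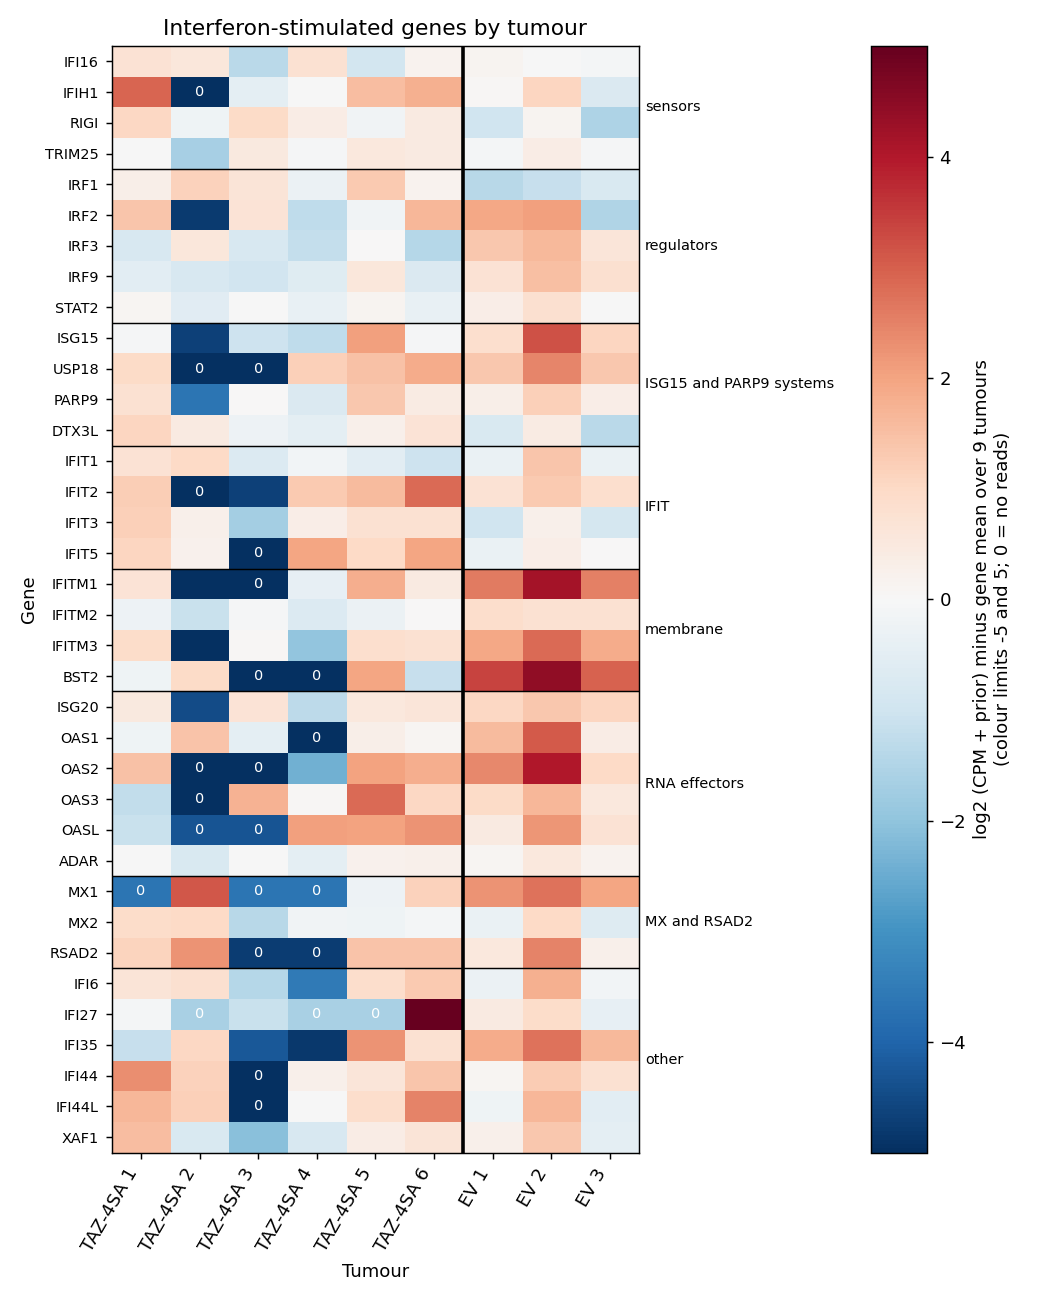
Log2(CPM + prior) of 36 members in 9 tumours relative to each gene's mean over the tumours, ordered by role, with 0 where a tumour had no read (colours end at -5 and 5). EV tumour 2 is the darkest red of the EV columns for nearly all genes, and TAZ-4SA tumours 2, 3 and 4 hold most of the zeros.

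On the wider list of interferon-stimulated genes, 6 of 55 tested were higher in TAZ-4SA, 2 were lower and 47 were not called, where 9.02% of all genes were higher and 13.3% lower. The list's median log2 fold change was -0.48, against -0.85 over all genes. TRIM22, an antiviral ubiquitin ligase, stood at 9.42, 15.9 and 12.3 CPM in EV and 82.8 to 147 CPM in TAZ-4SA (log2 fold change 3.07 ± 0.34, SE, limma adjusted p = 9.511e-05). EIF2AK2, which encodes the RNA-activated kinase PKR, stood at 15.9, 23.8 and 28.1 CPM in EV and 64.4 to 188 CPM in TAZ-4SA (log2 fold change 2.32 ± 0.42, SE, limma adjusted p = 0.002285). APOL6 and DDX60L were also higher (log2 fold changes 2.70 and 2.68, limma adjusted p = 0.002327 and 0.008042). The groups did not overlap for these 4 genes, for 15 of the 55 tested on this list, and for 32.0% of all genes.

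LGALS3BP, a secreted glycoprotein, was lower in TAZ-4SA, with 1733, 2152 and 1490 CPM in EV and 283 to 1133 CPM in TAZ-4SA (log2 fold change -1.58 ± 0.36, SE, limma adjusted p = 0.008743). DDX60L was not called with limma-voom on the recovered reads (limma adjusted p = 0.1262).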

How the data were processed

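RNA came from 9 intracranial LN229 tumours (TAZ-4SA n = 6, EV n = 3). SMART-Seq cDNA was turned into Nextera XT libraries, per the labels' protocols, and this chemistry does not keep strand. HISAT2, edgeR and GRCh38 are named in the submitters' processing notes, without roles. Neither notes nor labels state the counting tool, the annotation or any removal of mouse reads. Values were deposited by the authors as log2 CPM, a unit read from the values themselves. Less the shared lowest value of 0.145 CPM, 100% of values under 5000 reads were whole reads within 0.1 read in each tumour, so CPM and reads were recovered and 0.145 CPM was removed from the levels printed.

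Groups were taken from the sample titles. The labels do not tie tumours to animals, so the spread behind each p-value is that between these samples and may be technical. The test was limma 3.58.1 (R 4.3.3) on the deposited log2 values (trended, robust variance moderation). It covered the 15578 genes whose mean reached 1 CPM, prior included, with Benjamini-Hochberg adjustment over all of them at 0.05. Fold changes are on the log2(CPM + 0.145) scale, which understates changes of genes that are low in every tumour. For other genes, a tumour without reads can lower the mean log2 value of its group strongly. OAS3, IFI44 and IFIT2 had log2 fold changes of -1.59, -1.07 and -1.43, although their mean CPM was larger with TAZ-4SA. With a pseudocount of 2 CPM the median log2 fold change was -0.55 over members and -0.42 over all genes, against -1.13 and -0.85. Members and lists were chosen with earlier results of these data known. Members given with values were the called genes, the sensors, the regulators and genes with over 60% of a group's signal in 1 tumour, and others by range. From the other lists, up to 4 called genes per direction with the smallest p were named, and further genes of those lists (the receptors, the ligands and MAVS) were added after their values were seen. Some genes of these lists are counted but not reported by name here. Coordinates, for all 37 members, and promoter windows came from RefSeq on GRCh38.p14, and 15 members overlap another gene there. Intervals between tumours in a group cover more than counting error, while read floors cover counting error only.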

Additional observations from a re-analysis of the deposited data

Results flagged for a closer look

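In 4 of the 36 members tested in this way, 1 TAZ-4SA tumour lay far above the other 5, with a gap to the nearest tumour above the Dixon limit for a group of 6. For normally distributed values chance flags about 1 in 20 such groups, a rate that need not hold for the skewed CPM used here. IFI27 stood at 15.0 CPM in TAZ-4SA tumour 6, where the next tumour had 0.267 CPM. Its mean reached 1 CPM only through TAZ-4SA tumour 6, so this flag was not independent of the filter. ISG15 stood at 89.3 CPM and IRF9 at 85.9 CPM in TAZ-4SA tumour 5, where the next tumours had 20.8 and 40.2 CPM. MX1 stood at 15.7 CPM in TAZ-4SA tumour 2, where the next had 3.97 CPM. The EV group, with 3 tumours, was not tested in this way.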

How the results depend on the processing

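The 5 called members kept their direction under each of the alternatives, and the calls moved. Without a filter IRF7 was called and BST2 was not (limma adjusted p = 0.06614 for BST2). Leaving out each tumour in turn gave 0 to 2 members higher and 0 to 6 lower, 1 to 3 lower on the separate list of interferon-stimulated genes (4 to 9 higher), 2 to 8 higher and 0 to 5 lower signalling genes, and 799 to 1685 higher and 852 to 2688 lower genes in all. The log2 fold changes of uncalled members that changed sign then ranged as follows: IFI44 (-1.60 to 0.42), IFI44L (-0.99 to 0.93), IFIH1 (-0.81 to 1.01), IFIT1 (-0.63 to 0.22), IFIT5 (-0.40 to 1.24), TRIM25 (-0.23 to 0.21), IFI16 (-0.16 to 0.27), MX2 (-0.33 to 0.49). Without EV tumour 1, 2 or 3, 827, 799 and 1029 genes were higher and 872, 852 and 990 lower.

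Without a filter 3384 genes and 6 signalling genes were lower, and with a minimum mean of 10 CPM 967 genes and 1 gene of the separate list. Array weights, whose fit did not fully converge, gave 2531 genes higher and 5630 lower, 9 members lower, 12 higher and 11 lower on the separate list, and 10 higher and 11 lower signalling genes. On tumours 1 to 3 of each group 4 of the separate list were lower. Added after seeing the data, limma-voom on recovered reads gave 3646 genes lower, 8 members lower, 3 higher and 7 lower on the separate list and 8 signalling genes lower. Without TAZ-4SA tumours 2, 3 and 4, 4 members and 12 of the separate list were higher, as were 1893 of all genes. The member median was then -0.04, against -0.49 over all genes. Without TAZ-4SA tumours 5 and 6, 4 of the separate list and 6 signalling genes were lower. The cause of these shifts was not tested.

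With the replicate number as a block, 604 genes, 0 members, 3 of the separate list and 2 signalling genes were higher and 0 members lower, with limma adjusted p of 0.05018 for IRF1 and 0.0516 for IRF9. Same-numbered tumours showed little common deviation from their group means (correlations 0.031, 0.004 and -0.047). With so few tumours these values cannot exclude pairing, and the labels do not say what the numbers mark.

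Uncalled members whose log2 fold change turned sign were, with a pseudocount of 2 CPM, IFI27 0.26, IFI44L 0.10, IFIH1 0.30, IFIT5 0.49, MX2 0.01; after quantile normalization, where the median of all genes moved from -0.85 to -0.08 and 1941 genes were higher and 1658 lower, IFI16 0.10, IFI27 2.06, IFIH1 0.79, IFIT5 0.81, MX2 0.17, OASL 0.11, RSAD2 0.01; with array weights, IFI16 0.06, IFI27 0.09, IFI44 0.07, IFI44L 0.48, IFIH1 0.74, IFIT5 0.85, MX2 0.17, TRIM25 0.10; with the block, IFIT1 0.10, MX2 0.17; on tumours 1 to 3 of each group, IFIT1 0.10, MX2 0.17; with limma-voom, IFI16 0.08; without TAZ-4SA tumours 5 and 6, IFI16 0.18, MX2 0.08; and without TAZ-4SA tumours 2, 3 and 4, IFI6 0.50, IFI16 0.0031, IFI27 0.79, IFI44 0.71, IFI44L 1.37, IFIH1 1.94, IFIT2 0.93, IFIT5 1.35, IRF2 0.14, MX2 0.19, RSAD2 0.24, XAF1 0.48, PARP9 0.24, TRIM25 0.25. The count of members highest in EV tumour 2 was 33 of 36 under each scaling and pseudocount, and the median ratio ran from 1.92 to 2.24. Members at 0 reads did not follow depth: TAZ-4SA tumour 4, with 31468135 reads, had 6 of the 37 at 0, and TAZ-4SA tumours 5 and 6, with 3299325 and 3144861 reads, had 1 each.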

Other observations

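Among the 50 genes with an EV mean of at least 5 CPM and the largest ratio of EV tumour 2 to the higher of EV tumours 1 and 3, 14 were among the 37 interferon-stimulated genes and 2 were on the separate list of such genes. The 4 genes of the 50 with the largest ratios were on neither list and were named after their values were seen. SLC25A6, an ADP/ATP carrier gene, stood at 0.187, 38.0 and 0.387 CPM in EV tumours 1 to 3. YWHAE, a 14-3-3 protein gene, stood at 2.16, 73.3 and 1.74 CPM, and MYBPH, a myosin-binding protein gene, at 0.609, 15.4 and 0.193 CPM. MMP9, a matrix metalloproteinase gene, stood at 2.30, 34.6 and 2.13 CPM. EV tumour 2 was the highest of the 3 in each of these.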
